A study of Mus musculus with 6 samples.

Results

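The collagen prolyl and lysyl hydroxylases are described here in 3T3-L1 adipocytes by the 10 genes P3h1, P3h2, P3h3, P3h4, Crtap, P4ha1, P4ha2, Plod1, Plod2 and Plod3, out of 45706 genes in the count table. The list was chosen by the value of P3h3, which was lower in RBMS1 knockdown cells than in scrambled control cells. That comparison is the only one in the study, so the values of the 10 genes in it are given as a description, and P3h3 is given without a p-value. The other 9 genes were added as members of the same enzyme families and complexes. All 10 genes were found by name, and 9 of them passed the filter on low counts. P3h2 did not.

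3T3-L1 is a mouse fibroblast line that can be turned into adipocytes. RNA was sequenced from 3 scrambled control samples (genotype label WT, scrambled shRNA) and 3 RBMS1KD samples (Rbms1 shRNA), all differentiated with IBMX, insulin, dexamethasone and rosiglitazone and collected on day 7. Both lines were made by lentiviral transduction and kept under puromycin selection as stable lines. Whether the 3 samples of a group came from separate transductions is not given in the sources used here, so the spread within a group may not include the spread between such lines. Total counts ranged from 3142695 (scrambled control replicate 2) to 11073098 (RBMS1 knockdown replicate 3), and 3 counts, the limit that a count of 0 allows, came to 0.220 CPM in the deepest and 1.49 CPM in the shallowest sample. CPM are counts scaled by the library size and its TMM factor. That factor was 0.642 in scrambled control replicate 2 and between 0.974 and 1.23 in the other samples. The limits set by 3 counts cover counting error only. In bulk RNA, fewer cells of a type and less RNA per cell cannot be told apart.

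The targeted gene was lower in every knockdown sample. Rbms1 had 113, 102 and 99.6 CPM in scrambled control replicates 1, 2 and 3 and 49.2, 61.4 and 84.0 CPM in RBMS1 knockdown replicates 1, 2 and 3. The log2 fold change of Rbms1, knockdown over control, was -0.69 with a standard error of 0.20. In edgeR's quasi-likelihood test over 11440 genes its adjusted p (Benjamini-Hochberg) was 0.185, which missed the threshold of 0.1. Without RBMS1 knockdown replicate 3 it was -0.92 (adjusted p = 0.0708 by the same edgeR test, against 0.0708 to 0.572 over all alternatives). The 12 adipocyte markers were all detected, and their summed level was between 24288 and 27259 CPM in the control samples and between 12935 and 23156 CPM in the knockdown samples. Without Lpl, the most abundant of them, the other 11 summed to between 12013 and 13350 CPM in the control samples and to 12946, 7586 and 9995 CPM in RBMS1 knockdown replicates 1, 2 and 3, so that replicate 1 lay within the control range. A total of 11 of the 12 had a log2 fold change below 0 (median -0.42), the exception being the fatty acid transporter Cd36 (0.72, standard error 0.21, not called), and Retn, which encodes resistin, passed the test (-1.67, standard error 0.36, adjusted p = 0.0967 in that edgeR fit). The groups did not overlap in 5 of the 12, 4 lower and 1 higher, against 18.5% of all tested genes. The most abundant, Lpl and Fabp4, had log2 fold changes of -0.87 (standard error 0.43) and -0.46 (standard error 0.28) and were not called. Retn and Lpl lie on chromosome 8, where the median over 624 tested genes was -0.38 and 90.1% were below 0, and the part of that in their values was not tested. The 12 preadipocyte and fibroblast markers summed to between 4766 and 6066 CPM in the control samples and between 3615 and 7140 CPM in the knockdown samples. The sum of RBMS1 knockdown replicate 1 lay below each control, and those of replicates 2 and 3 lay above each control. None of these markers was called. Of the 11 tested, 6 were below 0 (median -0.07), and the groups did not overlap in 2, both lower, a share like the 18.5% of all tested genes, namely Pdgfra (-0.87, standard error 0.23) and Dlk1 (-0.84, standard error 0.36). The most abundant, Fn1 and Vim, had 0.52 (standard error 0.30) and -0.07 (standard error 0.29) on the same log2 scale. Of 8 markers of immune, endothelial, epithelial and mural cells, 3 had no count in any sample, 1 was tested, and the sum was at most 4.96 CPM in the control samples and 9.20 CPM in the knockdown samples. The epithelial keratin Krt18, untested, had 2, 1 and 4 counts in the control and 37, 39 and 3 counts in the knockdown samples. The macrophage marker Cd68 had 8, 5 and 4 against 17, 28 and 24 counts (adjusted p = 0.570 in the edgeR fit). The part of these markers in the results was not tested.

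Collagen chains are hydroxylated in the endoplasmic reticulum while they are still unfolded. Prolyl 4-hydroxylation, by a catalytic alpha subunit (P4ha1, P4ha2) paired with protein disulfide isomerase (P4hb), gives the triple helix its thermal stability. Prolyl 3-hydroxylation, by P3h1, P3h2 and P3h3, touches few residues, and lysyl hydroxylation, by Plod1, Plod2 and Plod3, prepares lysines for crosslinks and sugar attachment. Crtap and P3h4 are related to the prolyl 3-hydroxylases but lack the catalytic domain. Crtap joins P3h1 and cyclophilin B in one complex, and P3h4 joins P3h3 and Plod1 in another. These enzymes need iron, 2-oxoglutarate, oxygen and ascorbate. Adipocytes lie in a basement membrane of collagen IV and a pericellular net of collagen VI, so the enzymes have abundant substrates in fat tissue.

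In the scrambled control samples, the members covered a wide range of expression. Levels between genes are compared as CPM per kilobase of the union of annotated exons. P4ha1 was at 43.6 ± 5.18 CPM per kilobase (SD, n = 3), Plod1 at 40.1 ± 4.27, Crtap at 38.3 ± 6.38 and Plod3 at 31.7 ± 3.57. The control ranges of neighbours in this upper group overlapped, so their order is not settled. P3h4, at 13.9 ± 1.25 CPM per kilobase, lay clear of the genes above and below it. P3h1 (8.94 ± 1.56) and P4ha2 (8.27 ± 1.04) overlapped with each other, as did P3h3 (3.65 ± 0.94) and Plod2 (3.56 ± 0.48). P3h2 was the lowest, at 0.356 ± 0.0395 CPM per kilobase. Among all tested genes, P4ha1 stood at the 93.3rd percentile of this measure and P3h3 at the 40.7th. The lengths matter for this order. With the longest annotated transcript in place of the exon union, Plod1 rose to 66.3 and P4ha2 to 16.9 CPM per kilobase, and Plod1 then had the highest level, while P4ha2 lay between Crtap and P3h4.

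P3h3 (ENSMUSG00000023191) is on the minus strand of chromosome 6 of GRCm38, from 124841089 to 124857752. It had 14.9, 10.4 and 17.7 CPM in scrambled control replicates 1, 2 and 3 and 0.863, 2.69 and 1.61 CPM in RBMS1 knockdown replicates 1, 2 and 3. All 3 knockdown samples lay below all 3 control samples. The counts behind these values were 93, 21 and 103 against 6, 23 and 22, in knockdown libraries that were each deeper than each control library. The mean fell from 14.4 ± 3.68 to 1.72 ± 0.918 CPM (SD, n = 3), and the fitted log2 fold change was -3.05 (standard error 0.41), or 8.29-fold lower. P3h3 was the 1 member among the 140 genes called at an adjusted p of 0.1 or less, that is 1.22% of the tested genes. Of those genes, 104 (0.909% of the tested genes) were lower in the knockdown, while with library sizes alone 42 of 126 called genes were lower. As this contrast chose the list, nothing is read from that count. P3h3 was not called without scrambled control replicate 1 (log2 fold change -3.03) or without scrambled control replicate 3 (-2.87), where the calls over all genes fell to 21 and 32. Leaving out 1 sample at a time gave log2 fold changes from -3.47 to -2.76. The summed adipocyte marker level given above was also lower in each knockdown sample, but without Lpl only in RBMS1 knockdown replicates 2 and 3. P3h3 was lowest in replicate 1. The part of these markers in the P3h3 value was not tested.

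The genes next to P3h3 had too few counts to compare. Gnb3, 814 bases away on one side, had 3 counts over the 3 control samples and 0 over the knockdown samples, and Gpr162, 692 bases away on the other, had 0 and 2. The nearest tested genes were Cdca3 and Lag3. Their log2 fold changes were -0.17 (standard error 0.57) and -0.48 (standard error 0.64), with overlapping groups and adjusted p of 0.935 and 0.814 in the same edgeR fit. Over the 567 tested genes of chromosome 6 the median was 0.19.

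**Figure D1:**
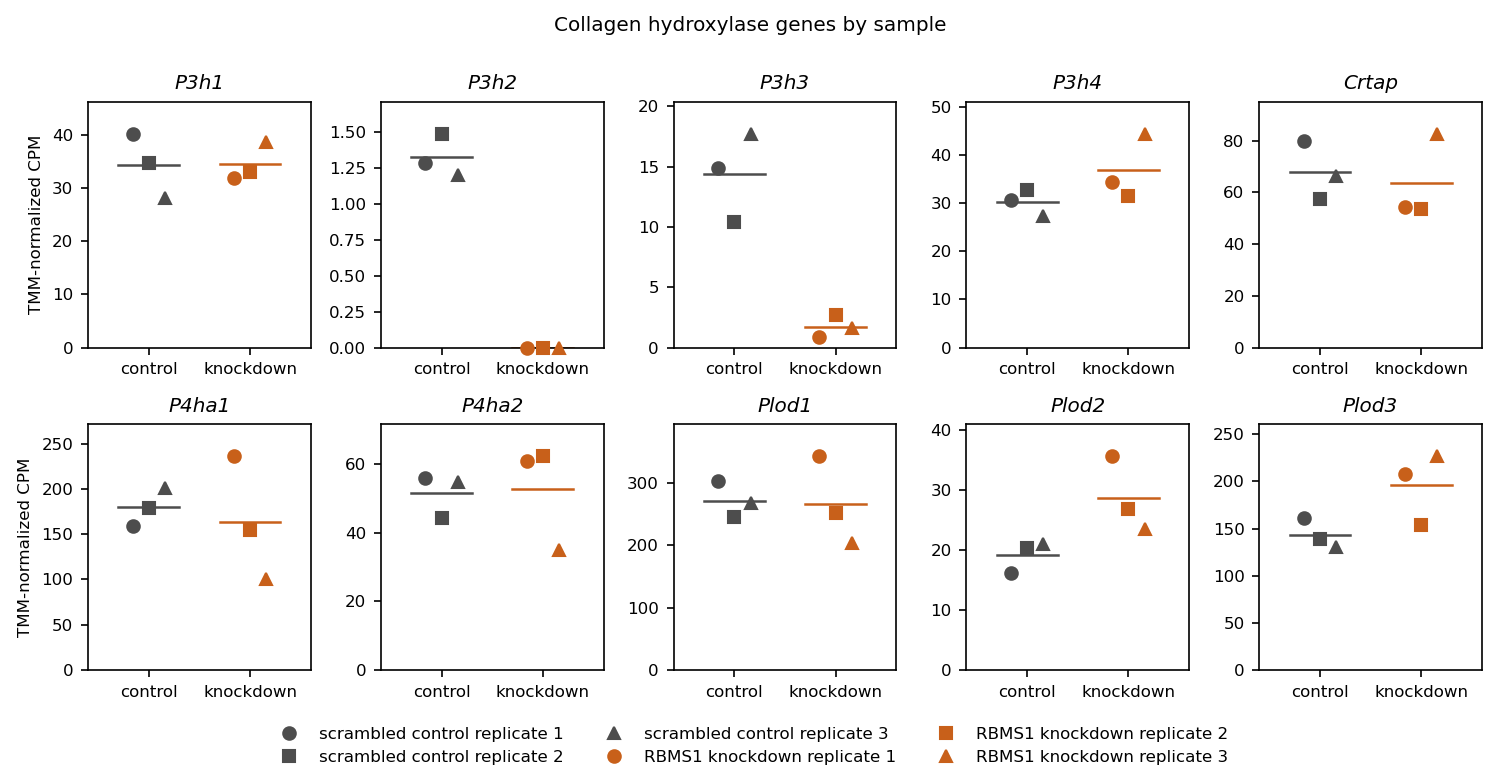
TMM-normalized CPM (vertical axes, linear, each from 0) of the 10 collagen hydroxylase genes in each scrambled control (grey) and RBMS1 knockdown (orange) sample. Symbols mark the replicate number, by which samples were not paired in the main fit, and lines are group means. P3h3 and P3h2 are lower and Plod2 is higher in each knockdown sample, while the groups of the other 7 genes overlap.

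P3h2 (ENSMUSG00000038168, chromosome 16, 25959288 to 26105784, minus strand) encodes the prolyl 3-hydroxylase that acts on basement membrane collagen. It had 8, 3 and 7 counts in scrambled control replicates 1, 2 and 3 and 0 counts in each knockdown sample. The controls thus held 18 counts among 15106266 and the knockdown samples 0 among 25066893. With each knockdown library set at 3 counts, P3h2 was at least 3.97-fold lower, and at least 3.39-fold to 4.64-fold when 1 sample was left out, or at least 3.04-fold with library sizes alone. These control counts are low, and that of scrambled control replicate 2 is itself at the floor. edgeR's filter removed it before the test. DESeq2, which called 3.20% of the genes it gave an adjusted p, called P3h2 and P3h3, as did edgeR without the filter, which called 1.38% of 19406 genes. P3h3 chose the list, and P3h2 entered these fits only through its control counts. These calls are a description and no separate support. P3h2 holds a sense intronic gene and overlaps an antisense gene (Gm4524), and the strand setting of the authors' counting is not given in the sources used here.

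P3h1 (chromosome 4, 119232915 to 119248975), the main prolyl 3-hydroxylase of fibrillar collagen, had 40.2, 34.7 and 28.2 CPM in the control samples and 31.9, 33.1 and 38.8 CPM in the knockdown samples. These groups overlapped fully, and the log2 fold change was 0.01 (standard error 0.18). Its partner Crtap (chromosome 9, 114375134 to 114390675) had 80.0, 57.6 and 66.2 CPM against 54.2, 53.5 and 82.7 CPM. RBMS1 knockdown replicate 3 held the highest Crtap level of all 6 samples and RBMS1 knockdown replicate 2 the lowest. The log2 fold change of Crtap was -0.10 (standard error 0.21). The per-length ratio of P3h1 to Crtap was 0.235 ± 0.041 in the control and 0.257 ± 0.0364 in the knockdown samples (SD, n = 3), and the groups overlapped.

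P3h4 (chromosome 11, 100408456 to 100414836), the noncatalytic partner of P3h3, had 30.8, 32.8 and 27.4 CPM in the control samples and 34.5, 31.6 and 44.5 CPM in the knockdown samples. RBMS1 knockdown replicate 2 lay within the control range, and the log2 fold change was 0.29 (standard error 0.18). The level of P3h3 per unit of P3h4, both per length, was 0.268, 0.176 and 0.359 in the control samples and 0.0139, 0.0472 and 0.0201 in the knockdown samples. The groups of this ratio did not overlap, and as it contains the P3h3 value it is no separate support. The ratio of P3h4 to Plod1, the third member of their complex, was 0.350 ± 0.0572 against 0.461 ± 0.194 (SD, n = 3) and overlapped.

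Taking the 3 catalytic prolyl 3-hydroxylases as one class, P3h1 made up 71.7%, 74.7% and 60.3% of their summed per-length level in the control samples. In the knockdown samples it made up 97.4%, 92.6% and 96.1%. P3h3 supplied 28.3 ± 7.82% of the class in the control and 4.62 ± 2.47% in the knockdown samples (SD, n = 3). With the longest transcript as the length, these means were 30.7% and 5.15%. The summed level of the class was 14.6, 12.1 and 12.2 CPM per kilobase against 8.52, 9.29 and 10.5, lower in each knockdown sample, with P3h1 itself overlapping between the groups. These shares contain the P3h3 value that chose the list and are a description.

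**Figure D2:**
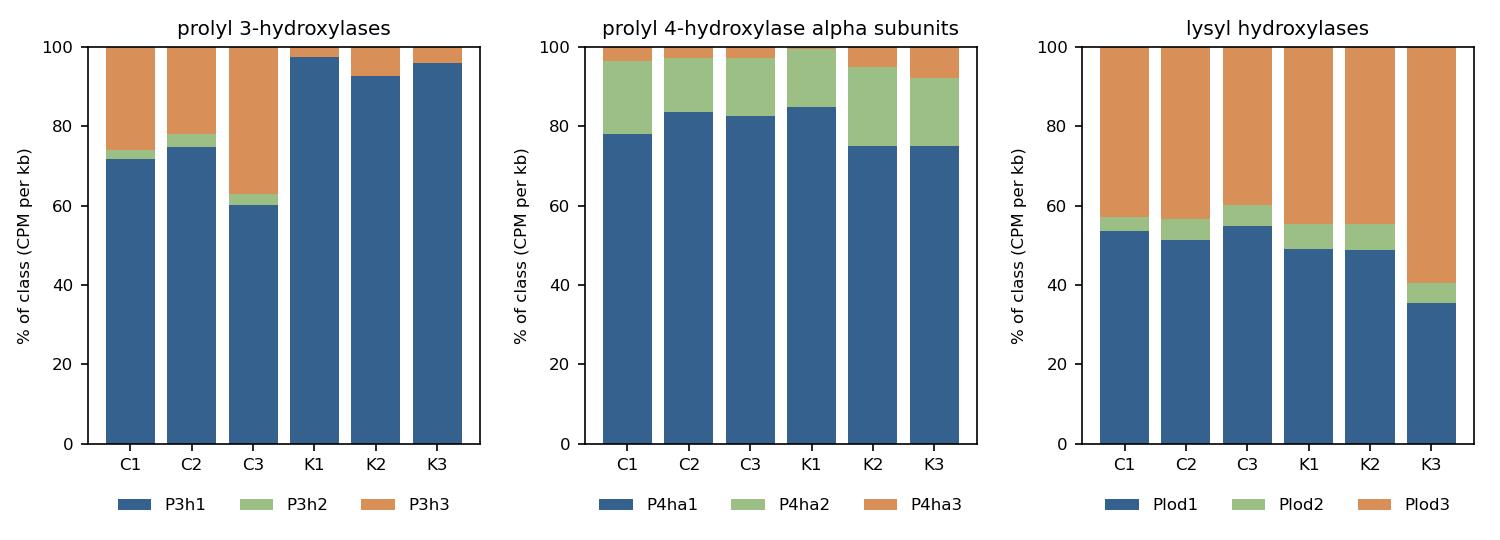
Share of each gene in its enzyme class, in percent of the summed CPM per kilobase of exon, for scrambled control (C1 to C3) and RBMS1 knockdown (K1 to K3) samples. P3h3 supplies 21.9% to 37.1% of the prolyl 3-hydroxylases in the control samples and 2.58% to 7.37% in the knockdown samples, while P4ha1 leads the prolyl 4-hydroxylases throughout.

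The prolyl 4-hydroxylase alpha subunits had similar group means and a wide spread among the knockdown samples. P4ha1 (chromosome 10, 59323296 to 59373304) had 159, 179 and 201 CPM in the control samples and 236, 155 and 100.1 CPM in RBMS1 knockdown replicates 1, 2 and 3. Its highest and its lowest value were both knockdown samples, and the log2 fold change was -0.13 (standard error 0.27). P4ha2 (chromosome 11, 54100095 to 54131665) had 55.9, 44.2 and 54.7 CPM against 61.0, 62.3 and 34.9 CPM. Here RBMS1 knockdown replicate 3 was the lowest sample, below each control, while the other two knockdown samples lay above each control, for a log2 fold change of 0.03 (standard error 0.23). P4ha1 made up 81.4 ± 2.87% of the per-length level of the 3 alpha subunits in the control and 78.4 ± 5.73% in the knockdown samples (SD, n = 3). P4ha3, the third alpha subunit and no member of the list, supplied 3.02 ± 0.528% and 4.40 ± 3.62%. The beta subunit P4hb was at 513 ± 13.3 CPM in the control and 566 ± 97.5 CPM in the knockdown samples (SD, n = 3). The groups overlapped, and the fitted log2 difference was 0.14 (standard error 0.17).

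Of the lysyl hydroxylases, Plod2 was higher in each knockdown sample. Plod2 (chromosome 9, 92542223 to 92608428), which hydroxylates lysines in the telopeptides at the chain ends, had 16.2, 20.3 and 21.0 CPM in the control samples and 35.7, 26.8 and 23.5 CPM in the knockdown samples. The groups did not overlap, but the gap between the highest control and the lowest knockdown sample was small beside the spread of the knockdown samples. The log2 fold change was 0.58 (standard error 0.21). Groups that do not overlap were found for 18.5% of the tested genes, 8.96% with the knockdown higher, and for 2 of the 9 tested members, P3h3 lower and Plod2 higher. Plod3 (chromosome 5, 136987019 to 136996648), which also transfers sugars to hydroxylysine, had 161, 138 and 130 CPM against 208, 154 and 227 CPM. RBMS1 knockdown replicate 2 lay within the control range, and the log2 fold change was 0.45 (standard error 0.18). Plod1 (chromosome 4, 147909753 to 147936767), which acts mainly on lysines of the helix, had 302, 245 and 268 CPM against 343, 252 and 203 CPM, with fully overlapping groups and a log2 fold change of -0.03 (standard error 0.20). None of Plod1, Plod2 and Plod3 passed the test. Over the 8 tested members other than P3h3, adjusted p values in the edgeR fit ran from 0.303 for Plod2 to 0.990 for P3h1.

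Within the lysyl hydroxylases, levels were also set against Plod1 in the same sample. The per-length ratio of Plod2 to Plod1 was 0.0672, 0.104 and 0.0983 in the control samples and 0.131, 0.133 and 0.145 in the knockdown samples. Each knockdown sample was above each control. As Plod2 itself did not overlap between the groups, this ratio is no separate support. The ratio of Plod3 to Plod1 was 0.800, 0.847 and 0.728 against 0.909, 0.916 and 1.67, which also did not overlap, with the highest value in RBMS1 knockdown replicate 3. The smallest p of a two-sided exact permutation test with 3 samples a group is 0.1, and these ratios were not tested. The ratio of Plod2 to its partner Fkbp10, the chaperone that supports its activity, overlapped between the groups at 0.246 ± 0.0846 and 0.326 ± 0.206 (SD, n = 3).

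**Figure D3:**
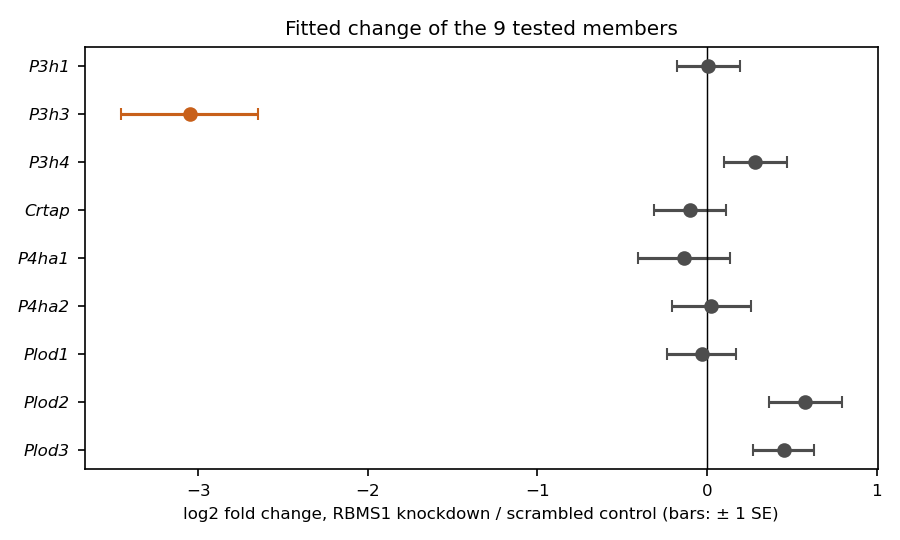
Fitted log2 fold change of RBMS1 knockdown over scrambled control (horizontal axis; points with bars of 1 standard error) for the 9 members that passed the filter on low counts, 3 samples a group. P3h3 (orange, called at an adjusted p of 0.1 or less, and the gene that chose the list) lies at -3.05, and the other 8 (grey, not called) lie between -0.13 and 0.58.

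In words over the list, 4 of the 9 tested members had a log2 fold change below 0, with a median of 0.01. Over all 11440 tested genes, 49.6% were below 0 and the median was 0.00437. Plod3, Plod2 and Crtap overlap genes on the opposite strand (Znhit1, Gm38391 and 4930520O04Rik), whose reads can be told apart only if the strand was used in counting.

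P4ha1, P4ha2, Plod1 and Plod2 are known to respond to hypoxia-inducible factor 1, as are Egln1 and Egln3, the oxygen-sensing prolyl hydroxylases of that factor. Among the knockdown samples, Egln3 varied from 318 CPM in replicate 1 to 109 CPM in replicate 2 and 35.3 CPM in replicate 3, while the control samples lay between 126 and 166 CPM. Egln1 had 186, 85.6 and 42.4 CPM in the same knockdown samples, against 133 to 159 CPM in the control samples. Relative to their control means, P4ha1 stood at 1.32, 0.861 and 0.558 in RBMS1 knockdown replicates 1, 2 and 3, Plod1 at 1.26, 0.927 and 0.747, and Plod2 at 1.86, 1.40 and 1.23. In each of these 5 genes replicate 1 was the highest and replicate 3 the lowest knockdown sample. They were set side by side after their values were seen, not from a fixed list of targets. Lox, another known target, ran otherwise, at 252, 651 and 476 CPM. Replicate 1 was the lowest knockdown sample in each of the 11 tested preadipocyte and fibroblast markers, and the highest in each of the 12 adipocyte markers. Fn1 had 2508, 4230 and 4054 CPM in RBMS1 knockdown replicates 1, 2 and 3, and Lpl 10210, 5350 and 5595 CPM. Acta2, Tagln and S100a4, picked after values were seen, rose from replicate 1 to 3, which not all fibroblast markers did. Acta2, smooth muscle actin, had 5.89, 209 and 298 CPM, Tagln 1.29, 18.1 and 26.0 CPM, and S100a4 32.6, 115 and 178 CPM. The part of such differences between the knockdown samples in the values of P4ha1, P4ha2, Plod1 and Plod2 was not tested. P4ha2 stood at 1.18, 1.21 and 0.677, with replicate 3 lowest. Rbms1 itself was at 0.469, 0.586 and 0.802 of its control mean in those samples. P3h3 did not follow this order, with its lowest knockdown value in replicate 1 and its highest in replicate 2. Without RBMS1 knockdown replicate 3, the log2 fold change of P4ha1 was 0.13, and without RBMS1 knockdown replicate 1 it was -0.49.

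**Figure D4:**
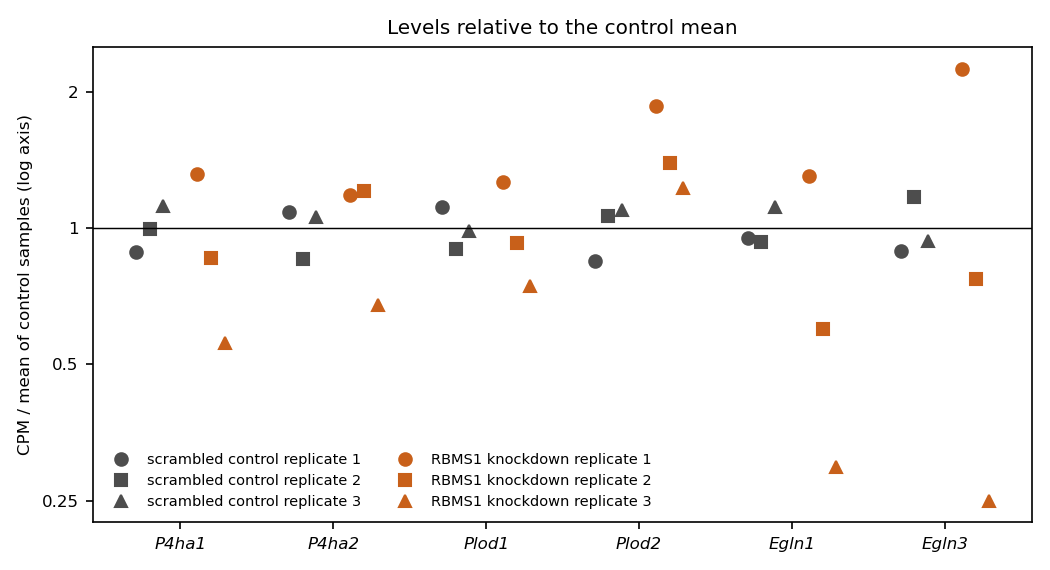
CPM divided by the mean of the 3 control samples (vertical axis, log scale) for P4ha1, P4ha2, Plod1, Plod2, Egln1 and Egln3 in each scrambled control (grey) and RBMS1 knockdown (orange) sample. RBMS1 knockdown replicate 3 (triangle) is the lowest knockdown sample in all 6 genes, from 0.25 of the control mean for Egln3 to 1.23 for Plod2.

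Promoter windows from 250 bases before to 50 bases after the start were at hand for 7 of the 10 members (RefSeq, GRCm38.p6, 32851 windows in all). The core letters of the hypoxia response element, ACGTG and GCGTG, were searched on both strands. Either was found in 43.8% of all windows, and 3 or more matches in 8.93%. The windows of P4ha1 (chr10:59323046-59323345, plus strand) and P4ha2 (chr11:54100674-54100973, plus strand) held 3 and 4 matches. The window of P3h3 (chr6:124857668-124857967, minus strand) held none. They are printed to set the gene that differed beside the pair that varied among the knockdown samples, 5′ to 3′, with the matches in capitals.
P4ha1: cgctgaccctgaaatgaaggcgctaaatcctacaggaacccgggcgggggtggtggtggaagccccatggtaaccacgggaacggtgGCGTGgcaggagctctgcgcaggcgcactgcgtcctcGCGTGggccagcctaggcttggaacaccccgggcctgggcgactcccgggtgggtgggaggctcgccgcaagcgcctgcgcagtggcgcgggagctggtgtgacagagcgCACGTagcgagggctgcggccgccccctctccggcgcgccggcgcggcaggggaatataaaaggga
P4ha2: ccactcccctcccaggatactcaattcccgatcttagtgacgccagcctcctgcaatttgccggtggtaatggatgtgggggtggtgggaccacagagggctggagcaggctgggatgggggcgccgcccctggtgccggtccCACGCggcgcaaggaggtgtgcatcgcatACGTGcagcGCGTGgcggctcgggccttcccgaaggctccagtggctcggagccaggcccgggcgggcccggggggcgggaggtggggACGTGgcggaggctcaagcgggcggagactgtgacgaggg
P3h3: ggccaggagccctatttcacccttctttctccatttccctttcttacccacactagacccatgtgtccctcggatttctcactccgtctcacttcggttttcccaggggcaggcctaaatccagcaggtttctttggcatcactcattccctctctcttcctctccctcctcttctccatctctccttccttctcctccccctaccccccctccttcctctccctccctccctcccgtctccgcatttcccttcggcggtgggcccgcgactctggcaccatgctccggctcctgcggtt
The P3h3 window has 11 CG steps, against 32 CG steps in P4ha1, 26 in P4ha2 and a median of 7 over all windows. Matches were not particular to the genes that varied in this way. Plod3 also held 4 and Crtap 3, as many as P4ha1, while Plod1 held 2 and P3h1 2 in each of its 2 windows. Plod3 and Crtap had their highest knockdown value in replicate 3, where P4ha1 and P4ha2 had their lowest. A match is a description of letters and says nothing of binding in these cells.

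RBMS proteins bind AU-rich RNA, and the word ATATA, read with U for T in the RNA, is of that kind. It was searched on the transcript strand only, in the longest protein-coding transcript of each gene (GENCODE M21, GRCm38), with overlapping matches counted. At least 1 match was found in 69.7% of 10765 tested genes with such a transcript, with a median of 2. P3h3 held 1 in 2850 bases, Plod2 held 6 in 3663, P4ha1 held 3 in 4043, P3h1 held 2 in 3188, and P3h4, Crtap and Plod3 held 1 each. P3h2, P4ha2 and Plod1 held none. The match of P3h3 lies in its 3′ untranslated region (chr6:124841205-124841209, minus strand) and the last of Plod2 in its own (chr9:92608301-92608305, plus strand). Both are shown with 10 bases on each side, the word in capitals, for the tested member that was lower and the one that was higher in every knockdown sample.
P3h3: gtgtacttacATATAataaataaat
Plod2: tgaggtttaaATATActatagctac
Of the 3 members without the word, P3h2 was at 0 counts in the knockdown samples and the groups of P4ha2 and Plod1 overlapped.

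The other genes of collagen synthesis, with the collagens themselves, were taken as 6 lists that held 84 genes, 59 of them tested. Col15a1 and Col23a1, both lower, were called, and no gene was called higher, against 1.22% of all tested genes called and 0.909% called lower. With 2 calls, nothing is read from that comparison. Of the 59 genes, 33 had a log2 fold change below 0 (median -0.06), against 49.6% of all tested genes. Col15a1, a basement membrane collagen that carries a heparan or chondroitin sulfate chain, had 342, 275 and 262 CPM in the control and 21.0, 11.0 and 4.55 CPM in the knockdown samples. Col23a1, a transmembrane collagen, had 13.8, 11.4 and 13.6 CPM against 2.44, 2.22 and 2.79 CPM. Their log2 fold changes were -4.60 (standard error 0.48) and -2.37 (standard error 0.27), with adjusted p of 0.0116 and 0.0125 in the same edgeR fit. Both were called in each comparison that left out 1 sample.

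The chaperones and modifying enzymes of the endoplasmic reticulum held no called gene among 16 tested, with 9 below 0 (median -0.05). Hspa5, the general chaperone BiP, was at 624 ± 55.9 CPM in the control and 598 ± 187 CPM in the knockdown samples (SD, n = 3). The 10 tested export genes, which carry procollagen out of the reticulum, had 3 below 0 (median 0.10) and no call. Sec31a and Mia3, the most abundant of them, had log2 fold changes of 0.04 and 0.22 (standard error 0.15 for both). The 9 tested genes of extracellular processing and crosslinking had 6 below 0 (median -0.15) and no call, and Lox, which oxidizes lysine and hydroxylysine for crosslinking, was at 553 ± 74.3 against 460 ± 200.1 CPM (SD, n = 3). RBMS1 knockdown replicate 1 was the lowest Lox sample, at 252 CPM. Pcolce, which enhances removal of the C-propeptide, was at 223 ± 47.3 against 186 ± 59.4 CPM (SD, n = 3), with overlapping groups.

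Among the substrates, the 9 tested fibrillar collagens had no call and 6 below 0 (median -0.07). The log2 fold changes of Col1a2 and Col3a1 were 0.40 (standard error 0.38) and -0.24 (standard error 0.29), with overlapping groups in both. The 9 tested basement membrane and beaded filament collagens had 6 below 0 (median -0.39). The groups did not overlap in 6 of them, 4 lower and 2 higher. Each of the other 5 collagen lists had 0 or 1 such gene, and the 6 lists together had 10 of 59, no more than the 18.5% of all tested genes. Col4a1, a substrate of P3h2, had 3013, 3850 and 3411 CPM in the control and 1577, 2126 and 2301 CPM in the knockdown samples (log2 fold change -0.78, standard error 0.26, adjusted p = 0.253 in the edgeR fit). Col4a1 also lies on chromosome 8, and the part of the lower median there in its value was not tested. Col6a3 had 2795, 2764 and 2260 CPM against 2940, 2992 and 4120 CPM, higher in each knockdown sample, with a log2 fold change of 0.36 (standard error 0.26). The 6 tested genes of the remaining collagens had 3 below 0 (median 0.19), and their most abundant members Col12a1 and Col16a1 had log2 fold changes of -0.32 (standard error 0.49) and -0.18 (standard error 0.39).

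Outside collagen synthesis, 2 further lists held enzymes of the same cofactor chemistry and the supply of those cofactors. Other dioxygenases that use 2-oxoglutarate had 14 of 26 tested genes below 0 (median -0.11), and none was called, against 1.22% of all tested genes. The groups did not overlap in 7 of the 26, 5 lower and 2 higher, against 18.5% of all tested genes. Nothing is read from these counts. Tet3 and Alkbh5, the most abundant of these dioxygenases, had log2 fold changes of 0.23 (standard error 0.19) and 0.04 (standard error 0.24). Of the 14 tested genes of ascorbate and iron supply, 5 were below 0 (median 0.10) and none was called. The groups did not overlap in 2 of the 14, 1 lower and 1 higher. The ferritin heavy chain Fth1 had 2424, 2946 and 2488 CPM in the control and 1909, 2015 and 1845 CPM in the knockdown samples, which did not overlap (log2 fold change -0.45, standard error 0.22, adjusted p = 0.459 in the edgeR fit), while the light chain Ftl1 overlapped (0.09, standard error 0.22).

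The tested genes with a pattern most like that of P3h3, by Pearson's r of log2(CPM + 0.5) over the 6 samples, were Dnajb1 (0.997), Sntb2 (0.995) and Nudt21 (0.993). All 3 lie on chromosome 8, where 90.1% of 624 tested genes were below 0 (median -0.38), and none is a collagen gene. The part of that lower median in these r values was not tested. Dnajb1, an Hsp40 co-chaperone, had 66.4, 56.1 and 75.9 CPM against 19.8, 32.5 and 23.5 CPM. These r values rest on 6 points in 2 groups and are a description. Among the 9 tested members, Plod2 had the lowest r with P3h3 (-0.853) and, after P3h3 itself, Crtap had the highest (0.265). P3h2, at 0 in each knockdown sample, was not tested and not ranked.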

How the data were processed

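Libraries were made by the authors from total RNA with a stranded kit after removal of ribosomal RNA. Per the labels and methods, reads were trimmed with Trim Galore 0.6.7, aligned to GRCm38 with STAR 2.7.10a and counted per gene with Salmon 1.9.0. The authors deposited these estimated counts without normalization, with 3.97% to 7.78% of a sample's values not whole (tolerance 1e-06). The annotation release and strand setting are not given in the sources used here.

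Here the estimated counts were rounded and fitted over the whole table with edgeR 4.0.16 under R 4.3.3 (filterByExpr, TMM, estimateDisp, glmQLFit with the newer estimates, glmQLFTest) on condition alone, all 6 samples, with Benjamini-Hochberg adjustment. Of 45706 genes, 11440 were tested. Calls were made at 0.1 (adjusted p). The standard error is the size of the log2 fold change divided by the square root of F. Positions and lengths came from GENCODE M21 (GRCm38), which held all 10 members and 11402 tested genes.

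The members and the 11 gene lists were chosen with earlier results of these data known. The genes named are Rbms1, the 10 members, each list's called genes and its 2 most abundant, the 3 genes most like P3h3, and the nearest tested gene on each side of it. Outside that rule, P4ha3, Fkbp10, Egln1, Egln3, Gnb3, Gpr162, Cd36, Pdgfra, Dlk1, Acta2, Tagln, S100a4, the genes called under an alternative alone (Col4a2, Col8a1, Fto, Loxl3) and the letters searched were chosen after values were seen. Genes that overlap a member on the annotation are named for that overlap. Alternatives were DESeq2 1.42.0, limma-voom (limma 3.58.1), RLE factors, library sizes alone, no filter, at least 1 CPM in 3 samples, a threshold of 0.05, a block on the replicate number, subtraction of per-chromosome medians (chromosomes with at least 50 genes), and each sample left out. edgeR's earlier estimates were added after seeing the data. The scripts were tested on a simulated table. At an adjusted p of 0.1, 12.0% of the edgeR calls and 22.0% of the DESeq2 calls there were false. In the same table edgeR called 47.1% of the genes set to a 2-fold change, so a list with no call may hold changes of that size.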

Additional observations from a re-analysis of the deposited data

How the results depend on the processing

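The number of called genes over the whole table was 140. It was 430 by DESeq2, 268 with no filter on low counts, 74 with chromosome medians removed, 53 at an adjusted p under 0.05, and between 12 and 696 with each sample left out. The members called were 1, P3h3, and 2 by DESeq2 and with no filter (P3h2 and P3h3), and between 0 and 1 when 1 sample was left out. In the 8 lists of collagen, dioxygenase and cofactor genes the calls were 2, 4 by DESeq2 (with Col4a1 and Col4a2), and between 2 and 6 with each sample left out. The 6 came without RBMS1 knockdown replicate 1 (with Col8a1, Egln1, Fto and Loxl3). In that run the calls over all genes rose from 140 to 696, so nothing is read from the added calls. Library sizes alone raised the median of all genes by 0.37, and the log2 fold changes of Crtap, P4ha1 and Plod1 were then 0.26, 0.23 and 0.31, or -0.11, -0.14 and -0.06 relative to that shift. P4ha2 was at -0.049 by limma-voom, and P3h1 at -0.050 with chromosome medians removed. With each sample left out, P3h1 ran from -0.12 to 0.15, Crtap from -0.33 to 0.042, P4ha1 from -0.49 to 0.13, P4ha2 from -0.10 to 0.26 and Plod1 from -0.25 to 0.13, so none of these 5 has a settled direction. P3h3, P3h4, Plod2 and Plod3 kept their direction in each alternative run. The cause of these differences was not tested. Replicate numbers are shared by the groups, but same-numbered samples did not deviate together (correlations -0.14, 0.08 and -0.03, with 1 of 6 samples closest to its own number). With 3 samples a group this cannot settle whether same-numbered samples were handled together, and the labels do not say. With the replicate block, 39 genes were called, P3h3, Col15a1 and Col23a1 among them, and P4ha2 was at -0.013. P3h2, with 18 counts in all, and P3h3, with 21 counts in scrambled control replicate 2, are limited by depth.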
